A study of Mus musculus with 18 samples.

Results

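Pituitary corticotrophs and melanotrophs were followed through 6 genes, Pomc, Tbx19, Crhr1, Avpr1b, Pax7 and Neurod1, in RNA-Seq of the hypothalamus, pituitary and thyroid of wild-type (WT) mice and of mice with a K146Q substitution in thyroid hormone receptor β (THRB). The genes were taken by name, and each is 1 row of the 24054 in the table of each tissue, so they are 6 of 24054 genes. The substitution removes a lysine to which the small modifier SUMO is attached. All K146Q mice were homozygous for a whole-body knockin that was backcrossed to the background on which it was made, and the WT mice were of the same substrain. The labels give the strain of all mice as C57BL/Ntac. The mice of both genotypes were untreated males aged 3 months. Each tissue has 3 WT libraries, numbered 1, 2 and 43 in the labels, and 3 K146Q libraries, numbered 60, 62 and 83, which gives 18 libraries in 6 groups of 3. The numbers recur in all 3 tissues and are used here as mouse numbers, although no label says that equal numbers are 1 mouse. The mutation is in every cell of the K146Q mice, so an effect within the pituitary and an effect that reaches it from elsewhere cannot be told apart. A table of gene values does not show the substitution itself.

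Corticotrophs of the anterior lobe and melanotrophs of the intermediate lobe are the pituitary cells that transcribe Pomc. Its protein product is a precursor, which corticotrophs cut into adrenocorticotropic hormone (ACTH) and melanotrophs cut further into α-melanocyte-stimulating hormone and β-endorphin. TBX19, also called TPIT, is the T-box factor that switches on Pomc in both cell types, NEUROD1 acts with it in corticotrophs, and PAX7 sets melanotrophs apart. Corticotrophs receive corticotropin-releasing hormone (CRH) through CRHR1 and vasopressin through the V1b receptor AVPR1B, while glucocorticoids from the adrenal hold Pomc down. The hypothalamus has its own Pomc neurons, in the arcuate nucleus.

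Values are the deposited normalized signal, which is on the CPM scale after the authors' normalization factor. Every value was a whole number of reads, and the libraries held 14902330 to 21230050 reads, so that 3 reads stand for a signal of 0.133 to 0.190. Differences are log2(signal + 0.5), K146Q minus WT, tested with limma and called at a Benjamini-Hochberg adjusted p under 0.05 over all genes of the tissue with at least 0.5 in at least 3 libraries. In the pituitary 1537 of 15589 genes were called (9.86%), 991 higher in K146Q mice (6.36%) and 546 lower (3.50%), and the genotypes did not overlap for 31.0% of the genes. The pituitary count was 625 without K146Q mouse 60 and 752 without K146Q mouse 62. Of the pituitary calls, 64.5% were higher in K146Q mice, against 48.8% when the scale was set by totals without the 10 most abundant genes. The thyroid library of WT mouse 1 stood apart in its pituitary hormone transcripts, which is described with the thyroid values. Replicates are separately numbered samples, and p-values measure the spread between them.

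The 6 genes are protein coding and lie on 5 chromosomes in GENCODE M21 (GRCm38). Pomc is at chr12:3954951-3960642 on the plus strand, with 1318 bases of merged exons. Tbx19 is at chr1:165137855-165160773 on the minus strand, and Avpr1b is at chr1:131599239-131612000 on the plus strand. Crhr1 is at chr11:104132855-104175523 on the plus strand, Pax7 at chr4:139737062-139833528 on the minus strand and Neurod1 at chr2:79452521-79456751 on the minus strand. Exons of Neurod1 overlap annotated exons of Cerkl on the same strand and of Gm26755 on the other, so its reads are less certain than those of the other 5 genes, which share no annotated exon sequence with another gene.

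The 250 bases before the start are shown for Pomc and for Tbx19, the gene of its activator. The pair were lowest in the same pituitary libraries (WT mouse 43 and K146Q mouse 83), and neither window covers an annotated exon. Both points hold for Crhr1 too, whose window is not shown. The windows shown are RefSeq windows on GRCm38.p6, written 5′ to 3′ on the strand of the gene, chr12:3954695-3954944 (plus) for Pomc and chr1:165160774-165161023 (minus) for Tbx19. Capitals mark the TATA box TATAAA on the strand of the gene, and on both strands the E-box CANNTG (the family to which NEUROD1 binds) and the homeodomain core TAAT, which overlaps itself where it reads TAATTA.
Pomc: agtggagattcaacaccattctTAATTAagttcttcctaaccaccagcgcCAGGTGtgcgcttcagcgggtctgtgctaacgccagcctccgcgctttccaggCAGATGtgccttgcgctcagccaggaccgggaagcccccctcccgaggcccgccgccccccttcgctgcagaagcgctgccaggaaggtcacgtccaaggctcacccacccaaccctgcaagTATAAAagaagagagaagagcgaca
Tbx19: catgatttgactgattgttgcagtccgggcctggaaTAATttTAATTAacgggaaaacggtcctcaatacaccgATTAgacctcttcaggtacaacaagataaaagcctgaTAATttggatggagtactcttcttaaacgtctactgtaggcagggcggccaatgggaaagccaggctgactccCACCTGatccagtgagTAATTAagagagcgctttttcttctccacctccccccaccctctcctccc
The Pomc window held a TATA box, found in 7.59% of all 32851 such windows, and 2 E-boxes, a motif found in 66.2%. One of its E-boxes was CAGATG, the form preferred by NEUROD1, which 14.4% of the windows held. The Tbx19 window held 1 E-box, no TATAAA and 7 matches to TAAT on either strand, a core present in 54.9% of all windows. The T-box half-site TCACACC was in neither window and in 3.33% of all. These are matches of letters and not measured binding, and sequence farther upstream than the 250 bases was not searched.

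Pomc was among the most abundant transcripts of the pituitary and did not differ between the genotypes by the test. Its signal was 11541, 11161 and 7554 in WT mice 1, 2 and 43, and 10274, 9931 and 5913 in K146Q mice 60, 62 and 83. The genotypes overlapped, and the lowest mouse of each genotype was well under the other 2. The means were 10085 ± 2201 and 8706 ± 2425 (SD, n = 3), a log2 difference of -0.23 with a standard error of 0.23 (limma, adjusted p = 0.591). The 95% confidence interval ran from -0.75 to 0.29 on the log2 scale, or from 0.594 to 1.22 as a ratio. A change of either direction within it is compatible with the values of these 3 mice per genotype. In bulk tissue, fewer cells of a type and less RNA per cell cannot be told apart. Without K146Q mouse 83 the difference was 0.03, and within a genotype the highest mouse was 1.53 times (WT) and 1.74 times (K146Q) the lowest.

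The rank of Pomc among the genes of each library depends on the levels of other genes as well as on its own. Pomc ranked 3, 4 and 4 in WT mice 1, 2 and 43, and 6, 5 and 8 in K146Q mice 60, 62 and 83, without overlap. The share of all genes whose ranks did not overlap was not computed. By level 31.0% of the genes did not overlap, and Pomc did overlap. Cga, the common α subunit of the glycoprotein hormones, and Chgb, a granule protein, stood above Pomc in all 3 K146Q libraries and in no WT library. Prl, which encodes prolactin, stood above Pomc in the 3 WT libraries and in K146Q mouse 83. Quantile normalization gives each library the same set of levels, assigned by rank. Under it Pomc was the 1 member called, lower in K146Q mice (log2 difference -0.87, limma adjusted p = 0.0259). Under the other 9 settings with all 6 libraries, the adjusted p of limma, edgeR or DESeq2 was 0.457 to 0.747.

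Of the transcription factors, Tbx19 had signals of 63.0, 82.4 and 60.1 in WT mice and 64.0, 69.7 and 44.1 in K146Q mice. The genotypes overlapped, with K146Q mouse 83 lowest. The log2 difference was -0.22 with a standard error of 0.17 (limma, adjusted p = 0.475). Pax7, the melanotroph factor, had signals of 48.5, 46.2 and 24.4 in WT mice and 45.0, 38.6 and 23.3 in K146Q mice. WT mouse 43 and K146Q mouse 83 were about equally low, and the genotypes overlapped. The log2 difference of Pax7 was -0.14 with a standard error of 0.28 (limma, adjusted p = 0.797), and it was 0.13 without K146Q mouse 83 and 0.03 without WT mouse 1. Neurod1, which serves corticotrophs, was near 6 in every library, at 5.16, 5.32 and 7.06 in WT mice and 7.33, 6.13 and 5.97 in K146Q mice. Here WT mouse 43 was the highest WT mouse, and the groups overlapped (log2 difference 0.14, standard error 0.16, limma adjusted p = 0.626).

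The receptors through which corticotrophs are driven gave no call either. Crhr1 had signals of 18.2, 18.4 and 13.5 in WT mice and 16.9, 17.6 and 15.9 in K146Q mice, with WT mouse 43 the lowest. Its log2 difference was 0.02 with a 95% interval from -0.28 to 0.32, the narrowest of the 6 (limma, adjusted p = 0.947). It was -0.12 without WT mouse 43 and -0.01 without K146Q mouse 62, so its sign was not fixed. Avpr1b was the most variable between mice and among the lowest in level, with 58 to 124 reads in WT mice and 43 to 93 in K146Q mice. Its signals were 4.63, 3.32 and 7.06 in WT mice and 4.799, 3.47 and 2.16 in K146Q mice. The genotypes overlapped although the means were 5.002 ± 1.90 and 3.48 ± 1.32 (SD, n = 3), a log2 difference of -0.47 with a standard error of 0.29 (limma, adjusted p = 0.363).

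**Figure D1:**
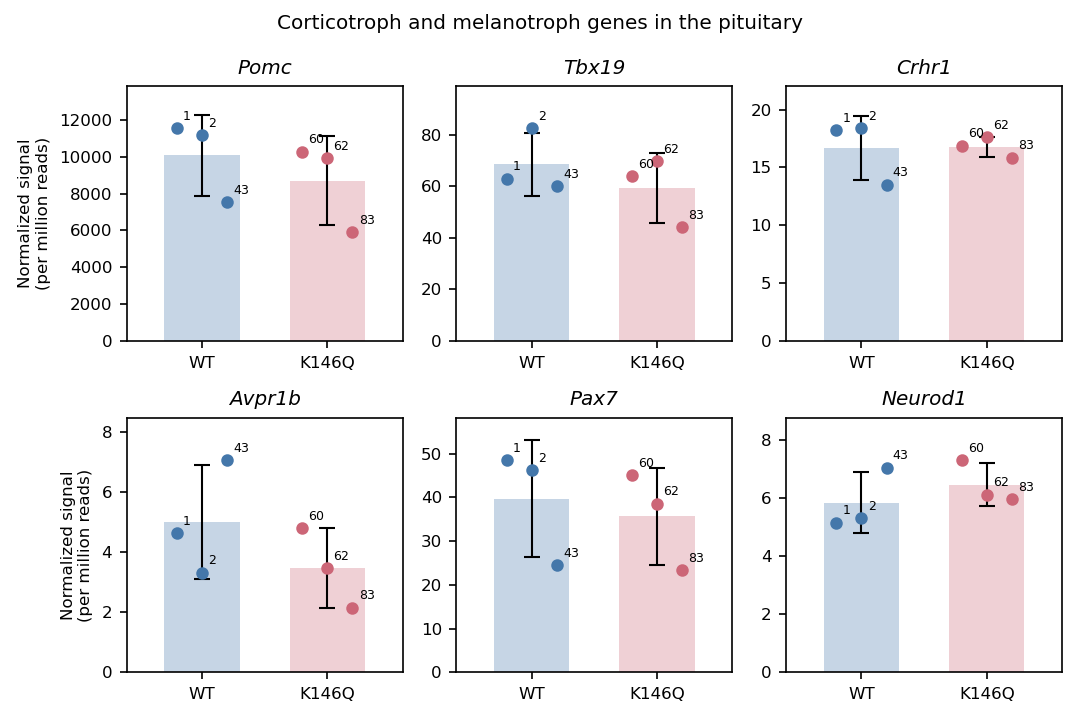
Normalized signal (CPM scale, each axis from 0) of the 6 genes in the pituitary. Points are mice, labelled with their numbers, bars are means and error bars are SD (n = 3 per genotype). The genotypes overlap for each gene, and WT mouse 43 and K146Q mouse 83 are the lowest of their genotypes for Pomc, Tbx19, Crhr1 and Pax7. Pomc was called lower in K146Q mice under quantile normalization alone.

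Thus 0 of the 6 genes were called in the pituitary and 0 of 6 had genotypes that did not overlap, beside 9.86% and 31.0% of all genes tested. Exact two-sided permutation tests of 3 mice against 3, which cannot go below 0.1, gave 0.4 to 1 for the 6 genes. edgeR and DESeq2 on the recovered reads called none of them.

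Several of the 6 genes varied together between mice of a genotype, a pattern noticed after the values were seen. WT mouse 43 and K146Q mouse 83 were the lowest mice of their genotypes for 4 of the 6 genes (Pomc, Tbx19, Crhr1 and Pax7). The same was true for 8 of 9 melanotroph markers (Pcsk2, Oacyl, Esm1, Pkib, Gulo, Megf11, Scn2a1 and Drd2), for 2 of 7 corticotroph markers (Cplx3 and Galnt9), and for 13.6% of the 15589 genes tested. Oacyl, the most abundant marker of melanotrophs after Pcsk2, had signals of 212, 211 and 126 in WT mice 1, 2 and 43 and of 192, 163 and 114 in K146Q mice 60, 62 and 83. Megf11, another, had 36.4, 33.6 and 16.5 in WT mice and 30.3, 28.1 and 19.1 in K146Q mice. Oacyl put the 6 mice in the same order as Pax7, and Megf11 did so but for the 2 lowest mice. The signal of Gh, growth hormone, was highest of all in WT mouse 43 (213048, against 97779 and 125476 in the other WT mice and 62503 to 75385 in K146Q mice), and its part in the pattern was not tested.

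Over the 6 pituitary libraries, Pomc and Pax7 on the log2 scale had a Pearson r of 0.961 (exact permutation p = 0.00139, adjusted 0.00694) and a Spearman rho of 1 (exact p = 0.00278, adjusted 0.0139), among 5 relations of Pomc with the other genes. Without WT mouse 43 and K146Q mouse 83, the libraries farthest from the median of Pomc, r was 0.879 over 4 libraries. For Tbx19, r was 0.848 (exact permutation p = 0.0264, adjusted 0.0660) and fell to 0.109 without these libraries, so that relation rests on them. For Crhr1, r was 0.714 (exact permutation p = 0.0861) and 0.741 without them. Avpr1b and Neurod1 did not follow Pomc, with r of 0.294 and -0.336 (exact permutation p = 0.510 and 0.521). With 3 mice per genotype the relations were not computed within a genotype, and the 6 points differ in genotype as well as in mouse. The shared low of WT mouse 43 and K146Q mouse 83 had been seen in these same values. These p-values are therefore a description and no independent support. The adjustment covers the 5 relations only, and the share of all genes with such an r was not computed.

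**Figure D2:**
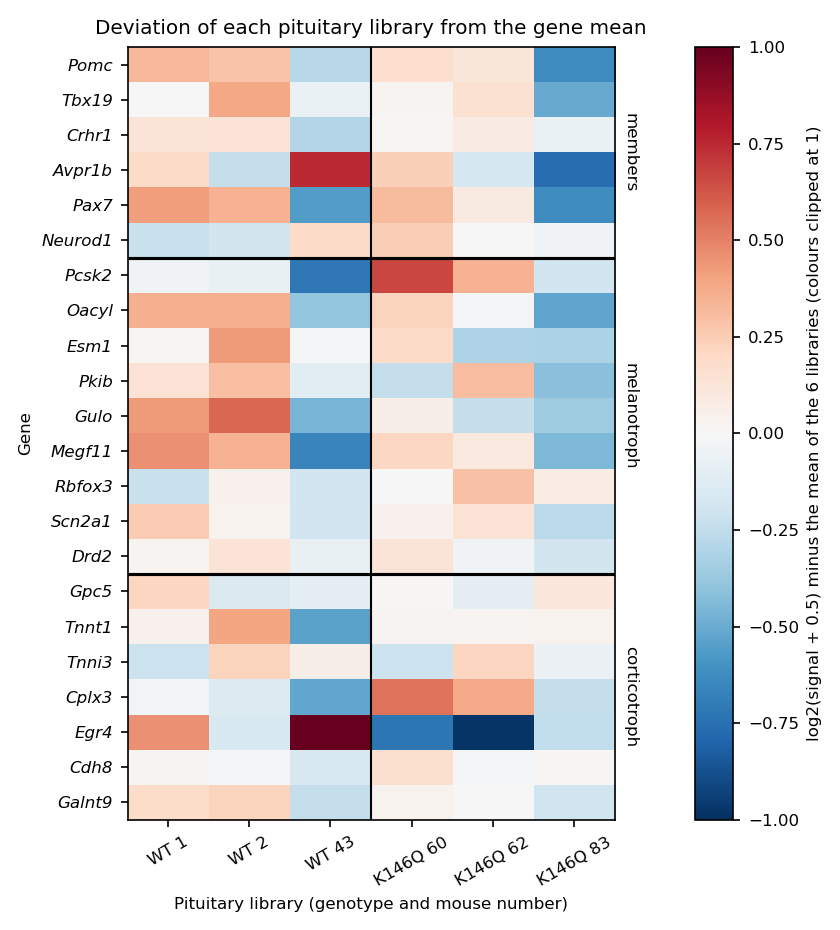
Deviation of each pituitary library from the mean of the gene over the 6 libraries, in log2(signal + 0.5), for the 6 genes (top), the 9 melanotroph markers (middle) and the 7 corticotroph markers (bottom). Columns are mice, and colours run from blue (below the mean) to red (above it). WT mouse 43 and K146Q mouse 83 are blue for Pomc, Pax7 and most melanotroph markers, while Avpr1b is highest in WT mouse 43 and lowest in K146Q mouse 83.

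The 5 genes whose pattern over the 6 pituitary libraries was most like that of Pomc were Hopx (r = 0.990), Xylt2 (0.989), Ribc2 (0.984), Speg (0.981) and D930015E06Rik (0.980). Each was lowest in K146Q mouse 83 and next lowest in WT mouse 43. Hopx had signals of 9.39, 9.15 and 7.52 in WT mice and 8.57, 8.27 and 6.37 in K146Q mice, a much flatter range than Pomc. None of the 5 was called between the genotypes.

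Of the genes that process the POMC precursor, 2 of 8 rose in the pituitary of K146Q mice and 0 fell, beside 6.36% of all genes higher and 3.50% lower. Pcsk1, the convertase that releases ACTH, had signals of 211, 225 and 215 in WT mice and 611, 468 and 438 in K146Q mice. The genotypes were far apart, and the log2 difference was 1.201 with a standard error of 0.11 (limma, adjusted p = 2.80e-04). Pam, which amidates peptide ends, rose from 754 ± 80.1 to 1134 ± 39.0 (SD, n = 3), a log2 difference of 0.59 (limma, adjusted p = 0.00316). Pcsk2, the convertase of melanotrophs, had signals of 365, 356 and 228 in WT mice and 594, 476 and 327 in K146Q mice, which overlapped (log2 difference 0.55, limma adjusted p = 0.163). These enzymes also serve other endocrine cells, and the thyrotroph genes moved in the same libraries, as the hormone genes below show.

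Of 9 melanotroph markers and of 7 corticotroph markers 0 were called in the pituitary, and all of them passed the filter on low values. In the hypothalamus 8 of the 9 and all 7 passed too, so passing the filter does not mark these cell types. Galnt9 and Cdh8, the most abundant corticotroph markers, had means of 7.25 ± 1.30 and 5.26 ± 0.374 in WT mice and of 6.61 ± 0.609 and 5.67 ± 0.412 in K146Q mice (SD, n = 3). The median log2 differences of these lists were -0.10 and 0.01, against -0.01 for all genes. Of the 13 genes of CRH and vasopressin input 5 passed the filter, and 1 of them, Gnas, which encodes the stimulatory G protein, rose from 6995 ± 507 to 9906 ± 1044 (SD, n = 3; log2 difference 0.50, limma adjusted p = 0.0302). Crh itself had 0 to 4 reads in the pituitary libraries.

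Among 11 genes of glucocorticoid feedback that passed, Anxa1, a glucocorticoid-induced annexin, rose (log2 difference 0.70, limma adjusted p = 0.0226) and Cdkn1a, a cell-cycle inhibitor, fell (-0.91, adjusted p = 0.0380), while 9 were not called. Without the mean-variance trend in limma Cdkn1a was not called (adjusted p = 0.0825). Nr3c1, the glucocorticoid receptor, had signals of 120, 109 and 158 in WT mice and 110, 119 and 151 in K146Q mice, with a log2 difference of -0.02 (limma, adjusted p = 0.948). Among the partner factors, Isl1 rose (log2 difference 0.82, limma adjusted p = 0.00872) and Lhx3 fell (-0.43, adjusted p = 0.0206). Lhx3 was not called without the trend (limma, adjusted p = 0.0666). Pitx1, which acts with TBX19 on Pomc, had means of 208 ± 12.5 and 233 ± 18.5 (SD, n = 3; limma adjusted p = 0.230). Nr4a1, the factor through which CRH acts on Pomc, ranged from 146.4 to 739 in WT mice and from 230 to 592 in K146Q mice, the widest spread of that list (limma, adjusted p = 0.933).

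Melanocortin and opioid genes were mostly low, and 6 of 11 passed the filter. Of these Oprk1, the κ opioid receptor, rose from 0.806 ± 0.413 to 2.81 ± 1.08 (SD, n = 3; limma adjusted p = 0.0227). Of 6 arcuate neuron genes that passed, Cartpt, which encodes the peptide CART, was called. It had signals of 1.02, 1.37 and 1.82 in WT mice and of 81.6, 16.2 and 14.9 in K146Q mice, so all 3 K146Q mice were higher and mouse 60 stood far above the others (log2 difference 3.88, standard error 0.53, limma adjusted p = 0.00192). None of the 5 posterior lobe markers was called (limma), and their median log2 difference was -0.33. The 2 most abundant, Col25a1 and Scn7a, had log2 differences of 0.13 and 0.03, and Vax1 had -0.57 (adjusted p = 0.0856).

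Hormone genes of other pituitary cells gave large differences in the same libraries. Tshb, the β subunit of thyrotropin, had signals of 539, 235 and 593 in WT mice and 8183, 7166 and 5600 in K146Q mice (log2 difference 4.03, limma adjusted p = 9.24e-05), and Cga rose by 2.42 on the log2 scale. Prl fell by 1.65 on the log2 scale and Ghrhr, the receptor for growth hormone-releasing hormone, by 0.48 (limma, adjusted p = 6.03e-04 and 0.0116). Gh had a log2 difference of -0.97 (limma, adjusted p = 0.0737), and Lhb, Fshb, Gnrhr and Sox2 had log2 differences of -0.01, 0.19, -0.24 and -0.17 and were not called. The neuronal genes Syt1 (216 ± 20.8 and 425 ± 38.2) and Snap25 (281 ± 16.1 and 334 ± 1.63; SD, n = 3) were higher in K146Q mice, 2 of 5 on that list, while Rbfox3, Slc17a6 and Slc32a1 were not called (limma). Snap25 was not called without the trend (adjusted p = 0.12). Of the thyroid follicular genes, 0 of 4 were called in the pituitary by limma. The part of these differences in the values of the 6 genes was not tested.

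**Figure D3:**
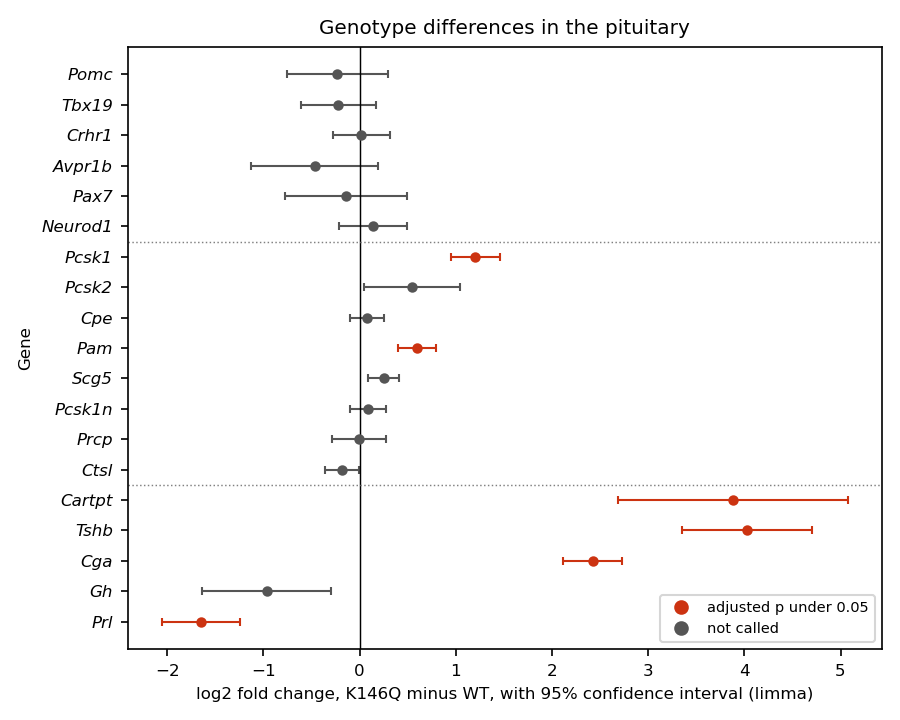
Log2 fold change of K146Q against WT in the pituitary, with its 95% confidence interval (limma, not adjusted for multiple genes), for the 6 genes (top), the 8 genes of POMC processing (middle) and Cartpt and 4 hormone genes (bottom). Red marks an adjusted p under 0.05. The intervals of the 6 genes all include 0, whereas Pcsk1 and Pam lie to the right of it. Pomc was called lower under quantile normalization alone.

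In the hypothalamus 0 of 15761 genes were called (0.00%) with limma, 645 had an unadjusted p under 0.05, edgeR called 0 and DESeq2 9, and the limma count was 6 without K146Q mouse 83 and 1 without WT mouse 43. Of the 6 genes 5 passed the filter and none was called. Pomc had signals of 21.2, 19.1 and 23.3 in WT mice and 19.2, 13.3 and 30.7 in K146Q mice, so the K146Q mice held both the lowest and the highest value (log2 difference -0.09, limma adjusted p = 0.998). The hypothalamus library with the highest value, K146Q mouse 83, was also highest for Gh, Cga and Tshb but not for Prl, Lhb or Fshb. The part of this in its Pomc value was not tested. Crhr1 had signals of 12.5, 11.3 and 10.1 in WT mice and 11.3, 10.4 and 9.84 in K146Q mice, which overlapped. Neurod1 had 6.68, 6.53 and 6.85 in WT mice and 6.88, 7.85 and 7.21 in K146Q mice. These last groups did not overlap, by a narrow margin (log2 difference 0.12). The exact permutation p was 0.1, the smallest possible, and the limma adjusted p was 0.998. The share of all hypothalamus genes without overlap was not computed. Tbx19 rested on 6 to 19 reads, Pax7 on 5 to 28 and Avpr1b on 0 or 1, too few to compare.

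The genes around the arcuate Pomc neurons and the corticotroph drive were as even. All 8 genes of the arcuate list passed, with 0 called and a median log2 difference of -0.15 against -0.0011 for all genes. Cartpt, which rose in the pituitary, had hypothalamic means of 43.9 ± 2.24 and 37.5 ± 5.002, and Nkx2-1 had 21.0 ± 3.199 and 20.3 ± 5.18 (SD, n = 3). Crh had signals of 2.98, 2.89 and 2.55 in WT mice and 3.26, 2.60 and 4.03 in K146Q mice, with the genotypes overlapping. Avp, vasopressin, had 100, 112 and 118 in WT mice and 116, 76.7 and 109 in K146Q mice, and was not called (limma, adjusted p = 0.998). The other lists had 0 genes called in the hypothalamus as well. The genotype difference in the pituitary was set against that in the hypothalamus in 1 fit of all 18 libraries, which called 3.24% of 17140 genes and 0 of the 6. That count of genes, 555, was 228 without mouse 60 and 250 without mouse 62.

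In the thyroid 37.8% of 15200 genes were called (19.7% higher and 18.1% lower in K146Q mice), and without K146Q mouse 62 the count fell from 5739 to 3602. Of the calls 52.1% were higher in K146Q mice, against 40.9% with totals without the 10 most abundant genes, a scale that moved the median log2 difference of all genes from -0.03 to -0.12. Of the 6 genes 2 passed the filter. Pomc had signals of 52.4, 9.30 and 9.68 in WT mice 1, 2 and 43 and of 6.69, 8.34 and 9.79 in K146Q mice. WT mouse 1 was above all the others, and the remaining 5 libraries overlapped. The log2 difference was -1.004 with a standard error of 0.60 (limma, adjusted p = 0.225), and -0.20 without WT mouse 1 (adjusted p = 0.457).

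The same library of WT mouse 1 was highest for the hormone genes of the other pituitary cells. Its Gh signal was 365, against 72.1 to 125 in the other 5 thyroid libraries, its Cga signal 95.9 against 7.83 to 16.1, and its Tshb signal 35.9 against 1.88 to 5.69. As a share of the mean pituitary signal, Pomc stood at 0.558% in that library and at 0.0712% to 0.104% in the other thyroid libraries. Gh stood at 0.338% and at 0.0667% to 0.115%, and Prl at 0.273% and at 0.0679% to 0.115%. Pomc thus lay within the range of the other hormone genes in thyroid libraries other than that of WT mouse 1. The source of these reads was not tested.

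In the hypothalamus the share of Pomc in its pituitary mean was 0.142% to 0.327% (median 0.215%). Gh was at 0.0758% to 0.104% and Prl at 0.0632% to 0.107%, without overlap with Pomc. Across libraries the ranges of the other 4 hormone genes overlapped that of Pomc. Lhb was at 0.144% to 0.204%, Cga at 0.0665% to 0.190%, Tshb at 0.0686% to 0.221% and Fshb at 0.0610% to 0.182%. Within each library Pomc had the highest share of these hormone genes, except in K146Q mouse 62. There Lhb stood at 0.197% and Pomc at 0.142%. The base of each share is the pituitary mean over both genotypes. Tshb and Cga were much higher and Prl lower in the K146Q pituitary, so the shares of these genes depend on that base. Tbx19 was at 0.560% to 1.49% and Oacyl at 0.704% to 1.64% of their pituitary means, on few reads for Tbx19.

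**Figure D4:**
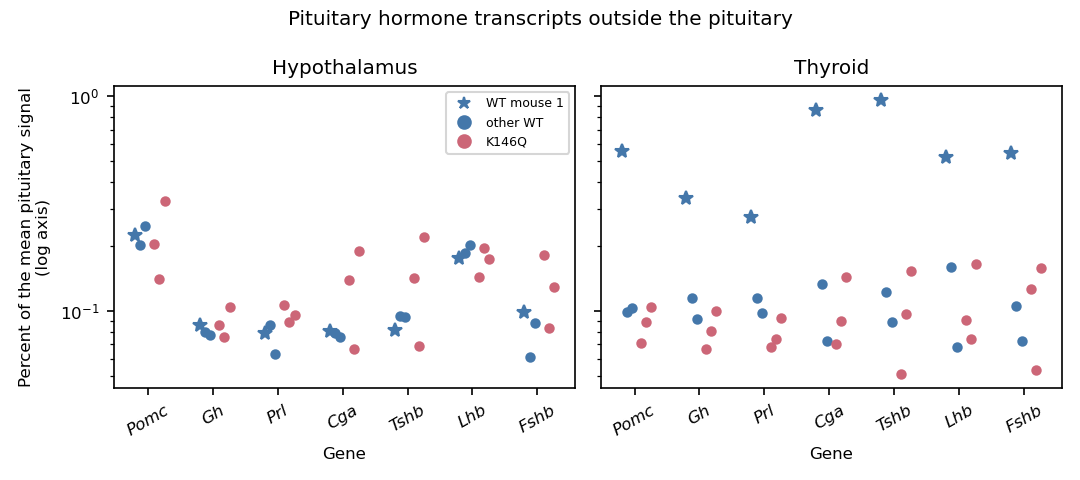
Signal of Pomc and 6 other pituitary hormone genes in each hypothalamus and thyroid library, as percent of the mean signal of the gene in the 6 pituitary libraries (log axis). That mean is over both genotypes, between which Tshb, Cga and Prl differed in the pituitary. Points are mice, and the star is WT mouse 1. In the thyroid the star is highest for all 7 genes, from 0.273% to 0.964%, and the other libraries lie between 0.0506% and 0.165%.

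Crhr1 was the 1 gene of the 6 past the threshold in the thyroid, on very few reads. It had 11, 15 and 15 reads in K146Q mice 60, 62 and 83 and 1, 0 and 0 in WT mice 1, 2 and 43, or signals of 0.545, 0.882 and 0.879 against 0.0632, 0 and 0. Every K146Q mouse was higher than every WT mouse, but all levels were low. The share of all thyroid genes without overlap was not computed. The gene passed the filter only through the K146Q libraries, so the count of 1 is not a result about the 6 genes. The log2 difference was 1.27 with a standard error of 0.23 (limma, adjusted p = 0.00425, exact permutation p = 0.1), and the pseudocount set its size (0.79 with a pseudocount of 1 and 2.86 with 0.1). Pooled over the mice, 41 reads against 1 gave a ratio of 36.5 with an exact 95% interval of 6.19 to 1475, which covers counting error only. Without any 1 of the 3 K146Q mice, at least 0.5 in 3 libraries could no longer be reached and the gene was not tested.

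The pituitary and thyroid differences of Crhr1 were compared directly. The genotype difference in the pituitary minus that in the thyroid was -1.25 with a standard error of 0.21 (limma on 18 libraries, adjusted p = 2.02e-04), beside 33.8% of all genes called in that comparison, and 1 of the 6 was called. It was -0.77 with a pseudocount of 1 and -2.84 with 0.1, past the threshold in both. Thyroid cell markers moved in the same libraries. Among C-cell markers, Calca, calcitonin, fell from 2273 ± 279 to 213 ± 84.2 and Ret from 82.1 ± 12.9 to 44.4 ± 10.3 (SD, n = 3), and Calcb, a paralog of Calca, rose on 0 to 64 reads. Their part in the Crhr1 value was not tested. Of 5 follicular genes, Tshr (253 ± 43.8 and 522 ± 31.3) and Pax8 (445 ± 20.3 and 581 ± 37.7; SD, n = 3) rose. Tbx19 had 0 to 6 reads in the thyroid, Pax7 0 to 7, Neurod1 0 or 1, and Avpr1b 0 in all 6 libraries, a floor of 0.149 to 0.190 in signal.

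The 8 genes of POMC processing were all called in the thyroid, 4 higher and 4 lower in K146Q mice. Pcsk1 had signals of 35.0, 33.0 and 20.7 in WT mice and 2.68, 1.65 and 1.52 in K146Q mice, and Pcsk2 had 139, 142 and 120 against 13.6, 8.23 and 8.79. Both fell in the thyroid, whereas in the pituitary Pcsk1 rose and Pcsk2 was not called. Pam rose in both tissues, in the thyroid from 466 ± 71.4 to 960 ± 97.4 (SD, n = 3). Of 12 glucocorticoid feedback genes, 2 rose (Hsd11b2 and Anxa1, the latter from 269 ± 73.7 to 958 ± 155) and 5 fell, among them Nr3c1 (136 ± 11.1 to 94.2 ± 8.24; SD, n = 3). Of 6 genes of CRH and vasopressin input, 2 fell (Gnas and Lifr). Of the melanotroph markers 2 of 7 rose and 2 fell, on a background of 37.8% of all genes called. Of the corticotroph markers 0 of 3 and of the other pituitary cells 0 of 8 were called in the thyroid by limma.

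Across the tissues the 6 genes differed in pattern. Per kilobase of exon, the WT pituitary signal was 7652 ± 1670 for Pomc, 21.5 ± 3.81 for Tbx19, 6.78 ± 1.12 for Crhr1, 6.78 ± 2.27 for Pax7, 2.14 ± 0.387 for Neurod1 and 1.24 ± 0.473 for Avpr1b (SD, n = 3). Crhr1 and Pax7 did not differ beyond their spread. In the WT hypothalamus the order per kilobase was Pomc (16.1 ± 1.59), Crhr1 (4.58 ± 0.483), Neurod1 (2.45 ± 0.0579), Tbx19 (0.225 ± 0.0980) and Pax7 (0.148 ± 0.123), with the last 2 within their spread, and Avpr1b was at 0.00479. Over both genotypes, the range of the Pomc share in its pituitary mean overlapped those of Lhb, Cga, Tshb and Fshb there. Within each hypothalamus library but that of K146Q mouse 62, Pomc had the highest share of the hormone genes. The source of its reads was not tested.

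In WT mice the pituitary was above the hypothalamus by 8.84 on the log2 scale for Pomc, 5.85 for Tbx19 and 4.95 for Pax7, and by 0.54 for Crhr1 (limma, adjusted p = 0.00345). Avpr1b had 0 or 1 read in each hypothalamus library, so the size of its difference depends on the pseudocount and is not given. Neurod1 did not differ between these tissues beyond its spread, with a log2 difference of -0.19 (95% interval -0.48 to 0.10, limma adjusted p = 0.222). Of all genes 73.0% were called in this comparison, and 75.6% in that of WT pituitary and thyroid, where all 6 genes were higher in the pituitary, Pomc by 9.15. The other 5 genes had 0 to 6 reads in each WT thyroid library, and the size of their differences moved with the pseudocount. For Avpr1b, with 0 reads in the thyroid, the fitted value was 2.54 with a pseudocount of 1 and 5.61 with 0.1, neither of which is a bound. The genes were chosen as pituitary genes, so these directions are a description. Neurod1 and Crhr1 were thus the members with a hypothalamic level near the pituitary one, at 106% to 127% and 58.8% to 74.5% of the pituitary mean.

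**Figure D5:**
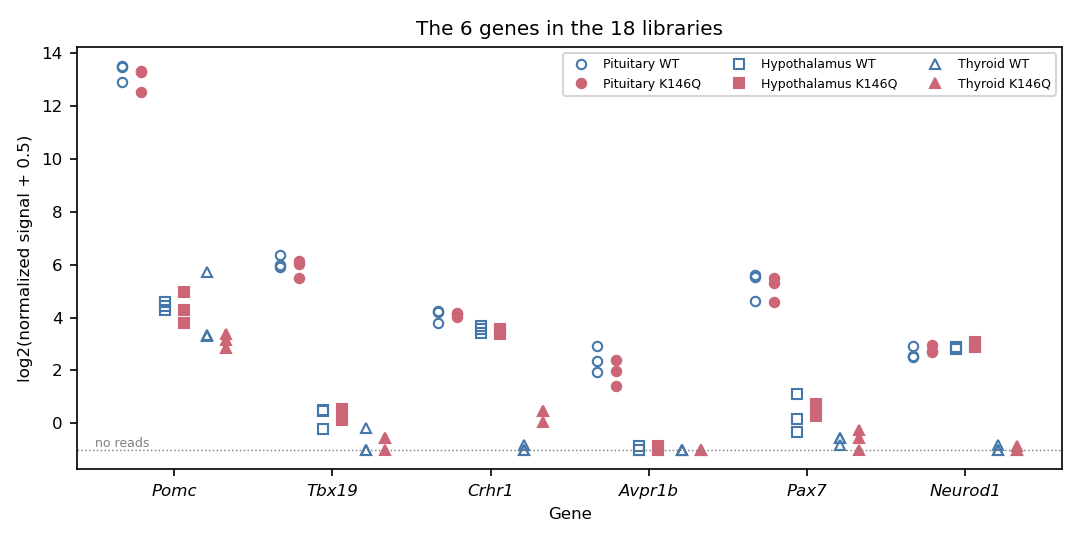
The 6 genes in the 18 libraries, in log2(normalized signal + 0.5), by tissue (marker shape) and genotype (open WT, filled K146Q). The dotted line is the value of 0 reads. Pomc, Tbx19, Avpr1b and Pax7 are highest in the pituitary, Crhr1 and Neurod1 are close in pituitary and hypothalamus, and in the thyroid Crhr1 is higher in the 3 K146Q mice than in the WT mice, which lie on or just above the line.

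The genes most like each of the 6 over all 18 libraries largely followed the tissues, and the libraries form 3 tissue groups. Pomc was nearest to Lhb (Pearson r = 0.995), Lhx3, Fshb, Myo15 and Tbx19 (0.990), and Tbx19 to Oacyl (0.995), 4930500J02Rik, Lhx3 and Pomc (0.990). Pax7 was nearest to Nespas (0.984), Loxhd1, Oacyl, Tbx19 and Mettl13 (0.983), and Avpr1b to Klf14 (0.985), Adam3, Gh, Prl and Serpina7 (0.982). Pomc, Tbx19 and Pax7 therefore appeared in the lists of each other or with the melanotroph marker Oacyl. Crhr1 and Neurod1, which the hypothalamus also held, stood apart, with Crhr1 nearest to Trerf1 (0.995), Abcg1, Rgs9, Prune2 and Dgkz (0.990), and Neurod1 to Rorb (0.997), Car10, Clvs1, Pcdhgc4 and Gabrb1 (0.996). Nespas is antisense to a gene of the Gnas locus, and whether strand was kept in counting is not given in the sources used here.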

How the data were processed

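RNA-Seq libraries of hypothalamus, pituitary and thyroid from 3 WT and 3 K146Q mice were grouped by the tissue and genotype in their labels. The authors deposited, per tissue, the normalized signal of 24054 genes in each library, which the paper calls normalized CPM. The submitters' processing notes name bcl2fastq 2.17, Bowtie2 2.1.0, RSEM 1.2.15 and the build mm10, without their roles, and the read counting and the software behind the authors' own fold changes and p-values, which were not used, are not given in the sources used here. The average log2 CPM that the authors deposited beside them was the same in all 3 tables for each of 24027 symbols, so a joint normalization was inferred, and 27 symbols had become dates. The planned test assumed CPM. The column totals differed between libraries, so the deposited values were treated as a signal, and 100% of them were whole reads within 0.05 of a read.

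The test was limma 3.58.1 (R 4.3.3) with a mean-variance trend on log2(signal + 0.5), at least 0.5 in at least 3 libraries of the fit, Benjamini-Hochberg adjustment over all genes and a threshold of 0.05, each tissue alone. Comparisons between tissues used the 18 libraries and 6 group means. Intervals are 95%. The functions were tested on simulated data. Alternatives were pseudocounts of 0.1 and 1, no filter, at least 1 in every library, median-of-ratios, quantile normalization, totals without the 10 highest genes, no trend, edgeR 4.0.16 and DESeq2 1.42.0 on recovered reads, and leaving out each mouse. Library numbers recur across tissues but not between genotypes, and no source used here says that equal numbers are 1 mouse.

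The 6 genes and all gene lists were chosen with earlier results of these data known. Named were the 6 genes in every tissue, up to 4 called genes of a list with the smallest adjusted p in the tissue described or otherwise the 2 most abundant, all genes of other pituitary cells, and the 5 genes most like each of the 6. Some genes that this rule names, and the counts of lists that rest on them, are not reported here. Pcsk2, Megf11, Nr3c1, Pitx1, Nr4a1, Vax1, Crh, Avp and the thyroid genes named beside Crhr1 go beyond that rule and were named after their values were seen. Libraries held 14902330 to 21230050 reads. Scn2a was matched as Scn2a1, and Asip was not matched. Promoter windows came from RefSeq (GRCm38.p6), which matched 5 of the 6 genes. Protein sequences and the Avpr1b promoter are not shown here.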

Additional observations from a re-analysis of the deposited data

Results flagged for a closer look

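Crhr1, the receptor for CRH, differed in its genotype effect between tissues by the test of the difference itself. The effect in the pituitary minus that in the thyroid was -1.25 on the log2 scale (limma on 18 libraries, adjusted p = 2.02e-04). Over 8 other settings it ran from -2.84 to -0.77 (adjusted p from 3.13e-06 to 0.00323), and without a mouse from -1.39 to -1.15 (adjusted p from 3.13e-04 to 0.00345). In the pituitary the difference was 0.02, with overlapping genotypes. In the thyroid it was 1.27, with 3 of 3 K146Q mice above all WT mice, and the share of all thyroid genes without overlap was not computed. The thyroid side rests on 41 reads in K146Q mice and 1 in WT mice, and within the thyroid alone the gene was tested only through its K146Q libraries and not without any 1 of them. The cause was not tested.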

How the results depend on the processing

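Of 697 recomputed values, 659 kept their direction and side of the threshold or, for counts, stayed within 1.5 times. Of 96 alternatives for the 6 genes in the pituitary, 1 gave a call, quantile normalization for Pomc (-0.87, adjusted p = 0.0259, which makes 1 member called). Reversals in the pituitary were Crhr1 with totals without the 10 highest genes (-0.035), and those that came with leaving out a mouse. Across the mice left out, Pomc ranged from -0.43 to 0.028, Crhr1 from -0.12 to 0.094 and Pax7 from -0.46 to 0.13. In the hypothalamus the same ranges were -0.39 to 0.20 for Pomc, -0.16 to 0.20 for Tbx19 and -0.15 to 0.58 for Pax7.

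Counts of genes without a mouse were 625 to 1345 in the pituitary, 0 to 6 in the hypothalamus, 3602 to 5106 in the thyroid and 228 to 446 for the effect in pituitary minus hypothalamus, which was 343 with at least 1 in every library. DESeq2 called 9 genes in the hypothalamus. Crhr1 was lost in the thyroid, with 0 members called, with at least 1 in every library, under quantile normalization and without each K146Q mouse (0 to 1 over all mice left out), because it no longer passed the filter. For the effect in pituitary minus hypothalamus, Neurod1 reversed under quantile normalization (-0.018) and with totals without the 10 highest genes (-0.033) and ranged from -0.10 to 0.14 without a mouse, and Pomc from -0.54 to 0.42. For pituitary minus thyroid, Tbx19 ranged from -0.56 to 0.037 and Pax7 from -0.54 to 0.11. Neurod1 in WT pituitary against hypothalamus became 0.071 with totals without the 10 highest genes. The cause of these shifts was not tested. Libraries with equal numbers in different tissues share only a number in the labels. Their deviations from the group means correlated at -0.03 to 0.17, over 0.1 in 3 of 18 pairs. A library correlated best with its own number in 21 of 36 comparisons. These comparisons take each pair of tissues in both directions and are not independent. The count to be had without shared mice was not computed, so no conclusion is drawn. With the number as a replicate block, all 28 results stayed the same by the rule above, which lets counts of genes move within 1.5 times. That fit changed no call of the 6 genes. It called 576 genes for pituitary minus hypothalamus, against 555 without the block. Depth limits Avpr1b and every member but Pomc in the thyroid.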
